A study of Mus musculus with 6 samples.

Results

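The epidermal differentiation complex is a block of neighbouring genes on mouse chromosome 3 that encode proteins of the cornified envelope, and it was examined here in RNA from thymic tuft cells. Members were chosen by gene symbol: genes whose symbol starts with Sprr, Lce or S100a followed by a digit, and the genes Rptn, Flg, Flg2, Ivl, Lor, Hrnr, Crnn, Tchh and Tchhl1. The symbols use no measured value, but the family was selected on its Het and Ko levels in an earlier look at the same libraries, so its fold changes and calls are a description of this contrast. The rule gave 63 of the 55471 genes in the expression table, with 17 Sprr, 21 Lce and 16 S100a genes, 7 genes of the fused type (Flg, Flg2, Hrnr, Rptn, Tchh, Tchhl1 and Crnn) and the 2 envelope precursors Ivl and Lor. One of them, the pseudogene S100a11-ps, lies outside chromosome 3 and belongs to the group by name only. Tuft cells were sorted from mouse thymus on the surface protein L1CAM. All 6 samples carried loxP-flanked alleles of Ikzf1 (Ikzf1fl/fl), the gene of the transcription factor Ikaros. The 3 controls, given as WT, lacked Foxn1-Cre, which is active throughout the thymic epithelium and not in tuft cells alone, and the 3 samples given as KO carried it. In the expression table, columns Ko1 to Ko3 were taken as the Cre-positive samples by name, which leaves columns Het1 to Het3 for the Cre-negative samples. The labels used here give no age. They do not state that libraries stem from different animals, and all p-values rest on the spread between libraries, which may be technical.

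The cornified envelope is the protein shell that replaces the cell membrane of keratinocytes at the end of their life. Transglutaminases cross-link precursors such as involucrin, loricrin and the small proline-rich (Sprr) and late cornified envelope (Lce) proteins into it, while the fused-type proteins, among them filaggrin and repetin, join a calcium-binding S100 domain to long repeats. The S100 proteins are small calcium sensors, and many of them are made outside the epidermis as well. In the thymic medulla, keratinocyte-like epithelial cells and Hassall's corpuscles are known sites of cornified envelope gene expression, whereas tuft cells are chemosensory epithelial cells.

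Promoter sequence was available for 55 of the 63 members (RefSeq, build GRCm38.p6, a build older than the GRCm39 of the expression data). The 250 bases before the start site are shown for 6 genes on which the results below turn: 5 that were read in every Het library and were lower in every Ko library, and Lce1h, which was high in 1 library. Capitals mark 3 kinds of match. TGANTCA is called an AP-1 match here, though only its forms TGAGTCA and TGACTCA are the usual AP-1 site of Fos and Jun proteins. The others are the octamer ATTTGCAT, which POU-domain factors such as the tuft cell factor Pou2f3 can bind, and the TATA box TATAAA. The positions are chr3:92485882-92486131 on the minus strand for Sprr1a, chr3:92338890-92339139 on the plus strand for Sprr2d, chr3:92351893-92352142 on the plus strand for Sprr2e, chr3:92573736-92573985 on the minus strand for Ivl, chr3:93393449-93393698 on the plus strand for Rptn and chr3:92765066-92765315 on the minus strand for Lce1h.
Sprr1a: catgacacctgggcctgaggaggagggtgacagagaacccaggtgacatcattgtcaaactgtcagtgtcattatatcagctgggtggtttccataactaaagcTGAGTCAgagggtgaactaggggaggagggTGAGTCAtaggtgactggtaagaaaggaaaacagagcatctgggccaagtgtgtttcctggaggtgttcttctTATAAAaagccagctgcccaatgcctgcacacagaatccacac
Sprr2d: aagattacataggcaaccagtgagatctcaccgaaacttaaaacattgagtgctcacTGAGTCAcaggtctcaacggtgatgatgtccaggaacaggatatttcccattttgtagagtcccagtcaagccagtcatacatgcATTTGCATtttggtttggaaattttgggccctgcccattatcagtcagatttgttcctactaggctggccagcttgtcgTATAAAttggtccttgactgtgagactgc
Sprr2e: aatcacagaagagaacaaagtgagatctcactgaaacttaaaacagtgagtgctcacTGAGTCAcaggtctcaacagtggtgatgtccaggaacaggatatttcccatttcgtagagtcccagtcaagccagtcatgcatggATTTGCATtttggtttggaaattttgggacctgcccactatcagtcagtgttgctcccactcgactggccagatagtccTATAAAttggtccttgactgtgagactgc
Ivl: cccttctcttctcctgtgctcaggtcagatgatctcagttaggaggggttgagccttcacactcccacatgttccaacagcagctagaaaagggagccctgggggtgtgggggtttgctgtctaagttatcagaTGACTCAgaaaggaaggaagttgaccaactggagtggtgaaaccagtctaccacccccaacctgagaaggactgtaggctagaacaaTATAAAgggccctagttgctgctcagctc
Rptn: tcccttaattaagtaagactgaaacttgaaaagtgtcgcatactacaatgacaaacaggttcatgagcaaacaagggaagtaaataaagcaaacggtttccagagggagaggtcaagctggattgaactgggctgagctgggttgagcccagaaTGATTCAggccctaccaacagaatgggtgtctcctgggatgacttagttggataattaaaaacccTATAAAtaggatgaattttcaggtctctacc
Lce1h: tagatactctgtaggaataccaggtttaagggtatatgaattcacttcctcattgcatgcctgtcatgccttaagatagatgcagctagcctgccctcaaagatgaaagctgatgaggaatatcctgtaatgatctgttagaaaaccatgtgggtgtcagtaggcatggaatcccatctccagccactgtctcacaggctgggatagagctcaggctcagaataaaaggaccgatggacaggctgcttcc
Both strands were searched, no match overlapped another in these 6, and the motifs were chosen with the sequences in view. An AP-1 match was present for 19 of the 55 members, or 34.5%, against 7.82% of all 27025 genes in the promoter table. It was found before 9 of 14 Sprr genes, 5 of 7 fused-type genes, both envelope precursors, 3 of 12 S100a genes and 0 of 20 Lce genes. In the fused-type genes, Rptn among them, and in Sprr1b and S100a16, every such match was TGAATCA or TGATTCA and not the usual site. The octamer was found before 7 of 14 Sprr genes, all of them Sprr2 genes, and before 1.81% of all genes. It stood 101 to 112 bases before the start site in all 7. The letters of the TATA box were found, on either strand and anywhere in the window, for 24 of the 55 members and for 14.3% of all genes. For Lce6a and Lce3e the match was the reverse complement TTTATA, beginning 218 and 243 bases before the start site, and not a TATA box in the usual place. In the other members it was TATAAA, 22 to 53 bases before the start site. Sprr2 promoters are copies of one another, as the lines for Sprr2d and Sprr2e show, so that these matches are not independent. Where a window held no match, as for Lce1h, this says only that the letters are not in it. A match is a string of letters and no evidence of binding.

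Libraries held 12238428 to 31435787 reads. Values in 3 libraries are given in column order. The 18 tuft cell marker genes were all tested, none was at 0, and their summed level was 167738 to 225515 normalized counts in Het and 239501 to 288817 in Ko libraries. Rgs13 alone had 34571, 29287 and 32157 in Het and 68079, 78565 and 98061 in Ko libraries. Without Rgs13 the sums of the groups overlapped. Ikzf1 itself was higher in the libraries labelled Ko, with 1584 ± 128 normalized counts against 254 ± 59.7 in Het (SD, n = 3; limma adjusted p = 0.0105). This is the opposite of a loss of its RNA, though a truncated transcript would be counted too, and directions are therefore stated for libraries as labelled. A normalized count is a read count divided by 1 size factor per library. Of the 63 members, 39 had a mean of at least 10 normalized counts and were tested with all 19416 such genes by limma on log2(normalized count + 1). The filter left out S100a11-ps and Lce3d, with means of 9.24 and 8.95, and let in Sprr2g and Lce1i, with means of 11.2 and 12.2. A member with reads in Het libraries alone could pass it, so that counts over the 39 lean towards genes that differ.

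Several cornified envelope genes fell steeply in the libraries labelled Ko, while the abundant S100a genes had small fold changes. Of the 39 tested members, 5 fell (Rptn, Sprr1a, S100a9, Sprr2d and Sprr2e; limma adjusted p under 0.05), where 0.525% of all tested genes fell. None rose by limma, edgeR or DESeq2, where 0.288%, 0.124% and 1.97% of all tested genes rose. At an unadjusted limma p under 0.05, 16 members were lower and 1, S100a10, was higher, where 7.99% and 5.62% of all tested genes were. Fold changes were negative for 37 of the 39 and positive for 2, against 52.8% and 47.2% of all tested genes, with a median log2 fold change of -2.58 against -0.05 over all tested genes. The medians of the groups were -3.86 for the fused-type genes, -3.11 for Sprr, -2.56 for Lce and -0.93 for S100a genes. In 15 members every Ko library lay below every Het library, where 9.86% of all tested genes had this pattern, and in S100a10 every Ko library lay above, as in 8.57% of all tested genes. Over all 63 members, the Het mean was the higher one in 51 and the Ko mean in 9, and 3 (Sprr2a1, Lce3e and Lce3f) had no read. In RNA from sorted bulk cells, fewer cells that express a gene and less of its RNA per cell cannot be told apart.

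**Figure D1:**
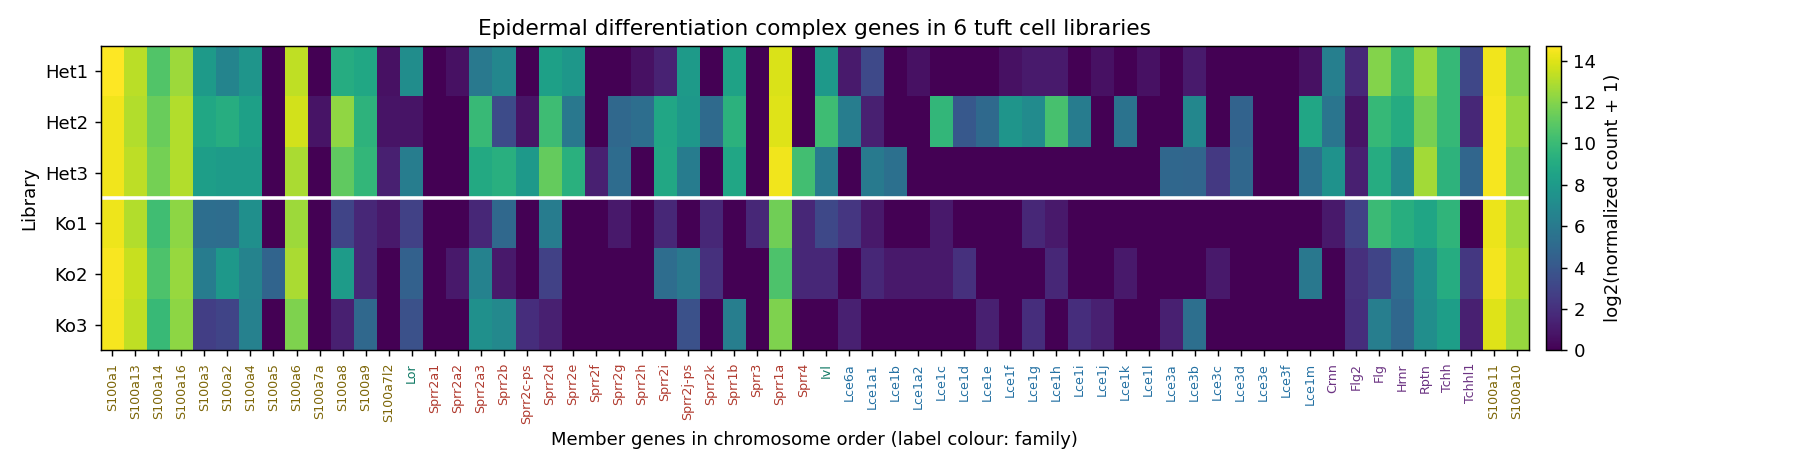
Heat map of log2(normalized count + 1) for the 62 members on chromosome 3 (columns, in chromosome order, label colour by family) in the 6 libraries (rows, with a white line between Het and Ko). S100a1, S100a13, S100a11 and S100a10 at the outer ends are bright in every library, Sprr2d, Sprr2e, Ivl, Crnn and Rptn are brighter in all 3 Het libraries, and the run from Lce1c to Lce1k is bright in Het2 alone, with Lce1j dark there too.

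**Figure D2:**
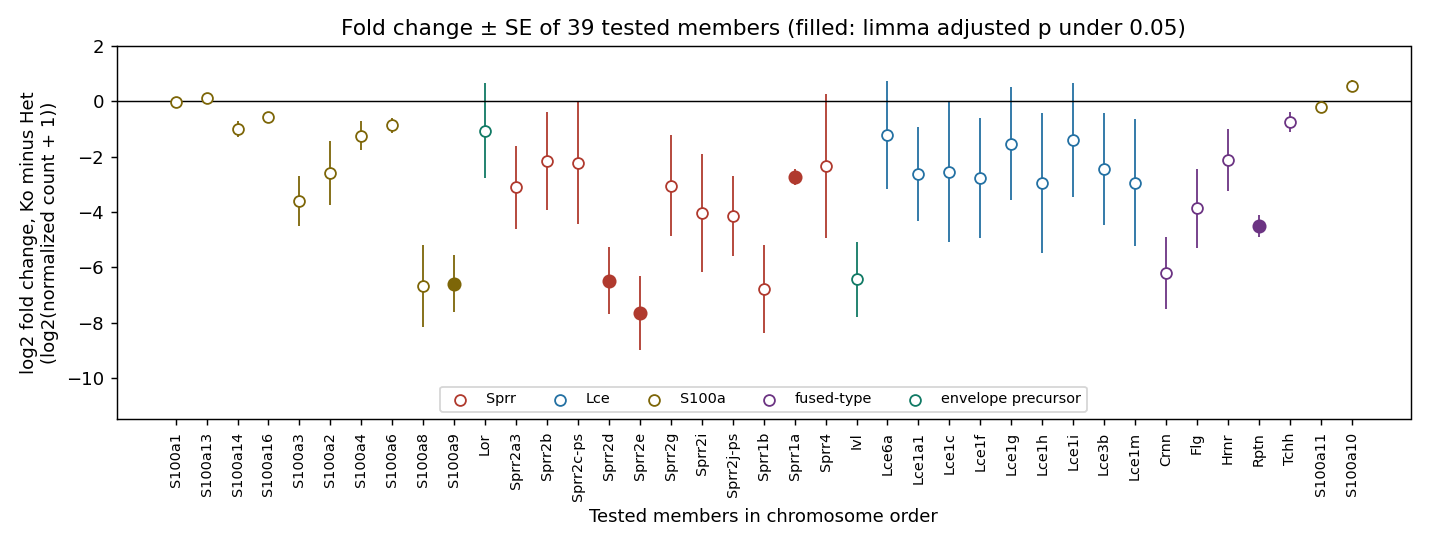
Log2 fold change of Ko minus Het with its standard error (vertical axis) for the 39 tested members in chromosome order and coloured by family; filled points have a limma adjusted p under 0.05. The 5 filled points lie between -2.74 (Sprr1a) and -7.66 (Sprr2e), and S100a13 and S100a10 are the points above 0.

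Sprr proteins are cross-bridging precursors of the envelope. Sprr1a was the most abundant of the family, with 14753, 16549 and 21708 normalized counts in Het libraries, and 2992, 1575 and 3770.1 in those labelled Ko. The lowest Het library was well above the highest Ko library, and Sprr1a fell by 2.74 ± 0.29 on the log2 scale (SE; limma adjusted p = 0.00978). Per kilobase of exon its level in Het libraries was 21923 ± 4479 normalized counts (SD, n = 3), below S100a11 at 43891 ± 1783 and S100a1 at 33244 ± 4591 and above the other members, of which S100a13 came next at 12578 ± 1082. In Ko libraries Sprr1a stood at 3448 ± 1381 per kilobase, below S100a10 at 5390.1 ± 1086 and S100a6 at 4193 ± 1391. Sprr1b, its close relative, was at 351, 695 and 418 in the Het libraries, and in Ko libraries it had 0 reads in Ko1 and Ko2 and stood at 75.9 in Ko3. The groups did not overlap, but 1 Ko library held all of the Ko reads (log2 fold change -6.78 ± 1.58, limma adjusted p = 0.0906; 0.0328 without Ko3).

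Among the Sprr2 genes, Sprr2d had 328, 1139.5 and 2450.0 normalized counts in Het libraries, while Ko libraries had 71.0, 6.22 and 1.43. It fell by 6.49 ± 1.21 on the log2 scale (limma adjusted p = 0.0460). Sprr2e was at 218, 57.5 and 651 in the Het libraries and had 0 reads in all 3 Ko libraries, against 922 reads in Het. Taking 3 reads over the Ko group as the floor, it was at least 208-fold lower there when reads were pooled within groups. This ratio leaves out the spread between Het libraries. The limma fit on the log2 scale, which does not test that ratio, gave Sprr2e an adjusted p of 0.0381. Both genes were present in every Het library, with an order of libraries that differed between them: Het2 was the lowest for Sprr2e and not for Sprr2d. Sprr2i was at 417 and 450.2 in Het2 and Het3 but at 1.68 in Het1, level with Ko1 at 2.06, and stood at 37.3 and 0 in Ko2 and Ko3 (limma adjusted p = 0.456). Sprr2a3 was at 61.0, 978 and 496 in the Het libraries and 2.06, 90.1 and 166 in the Ko libraries, so that Ko2 and Ko3 lay above Het1 (limma adjusted p = 0.402). Sprr2b was high in Het3 alone, at 609, with 111 and 9.23 in Het1 and Het2 and 30.9, 1.04 and 120.3 in the Ko libraries (limma adjusted p = 0.650). Sprr2j-ps, named as a pseudogene but annotated as protein coding in GENCODE, was at 254, 227 and 72.1 in Het and 0, 61.1 and 11.5 in Ko libraries, with no overlap (limma adjusted p = 0.247). Sprr2g, annotated as a polymorphic pseudogene, was at 0, 29.8 and 36.1 in Het libraries and had 1 read in the Ko group, in Ko1, and the pseudogene Sprr2c-ps was read in Het3 at 234, with 1 read in Het2 and 2 in Ko3. These values come from copies that resemble each other: of all 50-base stretches in the annotated transcripts of Sprr2a3, 61.1% also occur in another gene, against 4.27% for Sprr2d and 10.2% for Sprr2e, and for Sprr2a1 and Sprr2a2, which had 0 and 2 reads, it was 96.3% and 96.5%. Reads of the Sprr2a genes may therefore have been assigned to Sprr2a3 or dropped, and its value is uncertain.

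Sprr4 was seen in 1 library. It had 830 reads in Het3, which is 1198 normalized counts and 99.7% of its summed level, 0 reads in Het1 and Het2, and 2 reads each in Ko1 and Ko2. Its fold change turned positive without Het3, at 1.08 on the log2 scale. Sprr3, a precursor known from oral and oesophageal epithelium, had 2 reads in all, both in Ko1, while Sprr2f, Sprr2h and Sprr2k had 1, 55 and 51 reads in all.

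**Figure D3:**
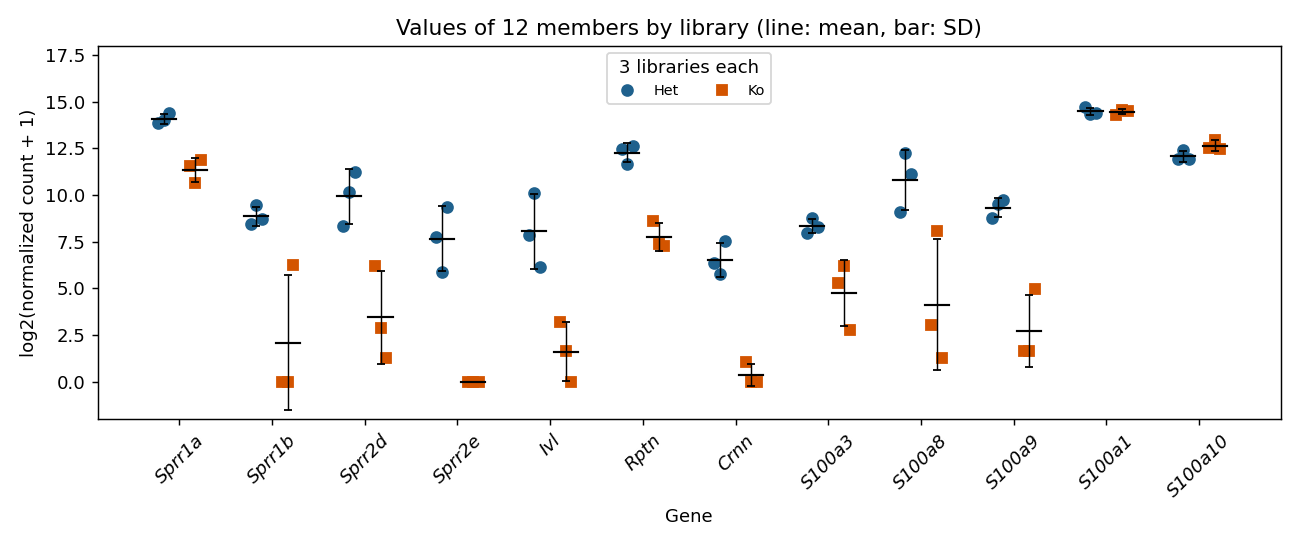
Values of 12 members in each library on a log2(normalized count + 1) axis, Het as blue circles and Ko as orange squares, with the mean (line) and SD (bar) of 3 libraries each. Sprr1a, Rptn and S100a3 are present in all libraries at 2 separate levels, Sprr2e and Crnn are at or near 0 in Ko libraries, and S100a1 overlaps between the groups.

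The fused-type genes did not move as 1 block. Rptn, encoding repetin, was at 5613, 3291 and 6399 normalized counts across the Het libraries, and the Ko libraries were at 392, 163 and 155. It fell by 4.51 ± 0.40 on the log2 scale (SE; limma adjusted p = 0.00585), with every Ko library far below every Het library, and Ko1 above Ko2 and Ko3. Crnn, encoding cornulin, a protein of oesophageal and other stratified epithelia, was at 80.5, 52.5 and 183 in Het libraries and had 1 read in Ko1 and 0 in Ko2 and Ko3. Its 345 reads against 1 give a ratio of normalized rates of 234, with an exact 95% interval from 41.7 to 9259 that covers counting error only, but it missed the limma threshold (adjusted p = 0.0651) and passed in DESeq2 (adjusted p = 1.46e-04). Flg, encoding filaggrin, which bundles keratin filaments, had 4047, 909 and 547 in Het libraries, against 1029.9, 7.25 and 75.9 in the others. Ko1 was above Het2 and Het3, so the groups overlapped (limma adjusted p = 0.270). Hrnr, encoding hornerin, was likewise highest in Ko1 among Ko libraries, at 592 there against 36.3 and 28.6 in Ko2 and Ko3, with 859, 520.4 and 123 in Het1, Het2 and Het3 (limma adjusted p = 0.454). Tchh, encoding trichohyalin, a protein of the inner root sheath of hair follicles, was present throughout, with 929, 907 and 723 in Het libraries against 774, 551 and 307, so that Ko1 lay above Het3 (limma adjusted p = 0.425). Tchhl1 and Flg2 had 41 and 17 reads in all. Flg2 was the 1 fused-type gene with the higher mean in Ko libraries, 4.05 ± 1.84 against 1.46 ± 0.764 normalized counts (SD, n = 3 each), at a depth of 1 to 6 reads per library.

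The envelope precursor Ivl, the involucrin gene, stood at 234, 1123 and 69.3 normalized counts in Het libraries, compared with 8.23, 2.07 and 0 in Ko libraries. No Ko library reached the lowest Het library, and Het libraries differed widely among themselves. The log2 fold change was -6.44 ± 1.36 (SE), which missed the limma threshold (adjusted p = 0.0655) and passed in DESeq2 (adjusted p = 3.53e-09). Lor, the loricrin gene, was at 149 and 75.0 in Het1 and Het3 but had 1 read in Het2, the library that was highest for Ivl. With 6.17, 22.8 and 11.5 in the Ko libraries its groups overlapped (limma adjusted p = 0.842), and its fold change turned positive without Het1, at 0.17 on the log2 scale.

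Fold changes of the S100a genes were small in the most abundant ones and tended to be larger in the less abundant ones. Level did not divide them cleanly. S100a8 and S100a14 had Het means of 2547 and 2464 normalized counts and log2 fold changes of -6.69 and -0.99. S100a1, known best from heart and skeletal muscle, had 26749.8, 21159.6 and 21305 normalized counts in Het libraries against 20366, 24001 and 23592. The groups overlapped, and its log2 fold change of -0.02 ± 0.13 turned positive under equal totals and quantile normalization and without Het1 or Ko1. S100a11, a partner of annexin A1, had 21378, 22898 and 23009 in Het libraries against 19779, 21929.9 and 16577, with Ko2 inside the Het range (limma adjusted p = 0.503). S100a13, which takes part in the release of fibroblast growth factors, had 9300.2, 8114 and 9566 in Het libraries against 8342, 11375 and 9957, again with overlap (limma adjusted p = 0.771). Part of the S100a11 signal is uncertain, since 41.1% of its 50-base stretches also occur in annotated pseudogene transcripts. S100a10, the partner of annexin A2 at the cell membrane, had the opposite direction, with 3895, 5522 and 3864 in Het libraries against 5936, 8041 and 5621. Its groups did not overlap, with a log2 fold change of 0.56 ± 0.20 (limma adjusted p = 0.251). S100a6, or calcyclin, had 10085, 13556 and 7465 in Het libraries against 6045, 7458 and 3693, so that Het3 and Ko2 nearly met. S100a14, an epithelial S100 gene, had 1651, 2604 and 3137 in Het libraries against 1151, 1565 and 960. S100a16 had 5970.5, 8143 and 8239 against 4753, 5595 and 4741. Each of these 3 was lower in every Ko library and none passed limma (adjusted p = 0.197, 0.161 and 0.178), while DESeq2 called S100a6 and S100a14.

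The paired calprotectin genes showed the widest S100a differences. Their products S100A8 and S100A9 form a complex that neutrophils carry in bulk and that stressed keratinocytes also make. S100a9 had 428, 741 and 841 normalized counts in Het libraries against 2.06, 2.07 and 30.1, and it fell by 6.60 ± 1.03 on the log2 scale (SE; limma adjusted p = 0.0272). S100a8 had 541, 4890.4 and 2209 in Het libraries against 7.20, 265 and 1.43. No Ko library reached the lowest Het library, but the spread within both groups was wide, and S100a8 passed limma without Ko2 and not with all libraries (adjusted p = 0.0284 and 0.0800). The high Ko library differed between the pair, Ko2 for S100a8 and Ko3 for S100a9. Of 12 neutrophil marker genes, 8 were tested and 0 were called by limma or edgeR. DESeq2 called 2 lower, where it called 3.96% of all tested genes lower. At an unadjusted limma p under 0.05, 3 were lower, where 7.99% of all tested genes were. Of the 8, 7 had negative fold changes, with a median log2 fold change of -2.72. The exception was Mmp9, at 161 ± 135 in Het and 189 ± 161 in Ko (SD, n = 3; log2 fold change 0.17). Mmp8 had the higher mean in Ko, 38.2 ± 64.9 against 9.09 ± 10.9, with a log2 fold change of -0.08. Itgam, encoding an integrin of myeloid cells, had 309.8, 139 and 167 in Het libraries against 39.1, 60.1 and 0, without overlap (limma adjusted p = 0.284). The granule genes Ngp and Camp had means of 38.2 ± 31.7 and 346 ± 503 in Het and 1.43 ± 2.48 and 17.8 ± 20.1 in Ko (SD, n = 3; limma adjusted p = 0.410 and 0.539). The 4 untested genes of the list, Csf3r, Cxcr2, Mpo and Elane, which define neutrophils and their precursors, stayed between 0 and 6.17 in every library. Ly6g, a neutrophil surface marker, had 36.9, 846 and 216 in Het libraries against 0, 3.11 and 0 (limma adjusted p = 0.0652), highest in Het2 as S100a8 was. The summed level of the 12 genes was 6432 to 21255 in Het and 776 to 8244 in Ko libraries, mostly from Ltf, the lactoferrin gene, which secretory epithelia also express (limma adjusted p = 0.261). The part of neutrophil RNA in the S100a8 and S100a9 values was not tested.

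Other S100a genes were read at lower levels. S100a3, known from the cuticle cells of hair, had 253, 432 and 307 normalized counts in Het libraries against 38.1, 71.5 and 5.73, without overlap (log2 fold change -3.60 ± 0.91 SE; limma adjusted p = 0.114, DESeq2 adjusted p = 0.00337). S100a4 had 205, 327 and 265 in Het libraries against 158, 96.3 and 85.9, again without overlap (limma adjusted p = 0.331). The annotation puts 51.7% of the exon bases of S100a4 inside the gene Gm42674 on the same strand, so its reads may be shared. S100a2 overlapped between the groups, with 100.1, 564 and 264 in Het libraries against 37.0, 228 and 7.16 (limma adjusted p = 0.368). S100a5 had 25 reads in Ko2 and none elsewhere, and S100a7a and S100a7l2 had 1 and 4 reads in all.

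Lce genes were read mainly in Het2 and Het3. Of 21 Lce genes, 12 had more than 3 reads in Het2, 6 in Het3 and 1 in each of the other 4 libraries. Lce1h was at 1382 normalized counts in Het2 and at 1.12, 0, 1.03, 2.07 and 0 in Het1, Het3, Ko1, Ko2 and Ko3, so that 99.7% of its summed level came from 1 library. Lce1c was at 843 in Het2 and at 1.04 or below in the other 5 libraries. Along the chromosome, Lce1c to Lce1k form a run of 9 neighbouring genes, and 8 of these, all but Lce1j, had more than 3 reads in Het2. The run held 3839 reads in Het2, 6 in Het1, 0 in Het3 and 4, 7 and 6 in the libraries labelled Ko. Of the 6 Lce genes over 3 reads in Het3, 3 were also over 3 reads in Het2 (Lce1m, Lce3b and Lce3d, the last at 24.8 and 28.9 normalized counts in Het2 and Het3). The other 3 had 0 to 2 reads in Het2, with 41.8 normalized counts of Lce1b, 64.9 of Lce1a1 and 28.9 of Lce3a in Het3. Between 9.12% and 27.1% of the 50-base stretches of the 9 genes in the run also occur in another gene, so single values within it are less certain than their sum. Lce1m was at 415 in Het2, 41.8 in Het3 and 59.0 in Ko2 and at 0 or 0.559 in the other 3, and Lce3b at 110.0, 27.4 and 40.1 in Het2, Het3 and Ko3. Lce1f was at 202, Lce1g at 133, Lce1i at 70.3 and Lce6a at 73.8 in Het2, each at 4.12 or below in the other 5 libraries.

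The 9 tested Lce genes all had negative fold changes, but their groups overlapped in each and 0 were called by limma, edgeR or DESeq2, which gave 7 of them no adjusted p, and 0 had an unadjusted limma p under 0.05. Without Het2 the log2 fold change turned positive for Lce6a, Lce1c, Lce1g, Lce1h and Lce1i, at 0.34 to 0.68. Summed over the family, Het2 had 3350.4 normalized counts, against 15.7 in Het1, 238 in Het3 and 9.26 to 71.5 in Ko libraries.

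**Figure D4:**
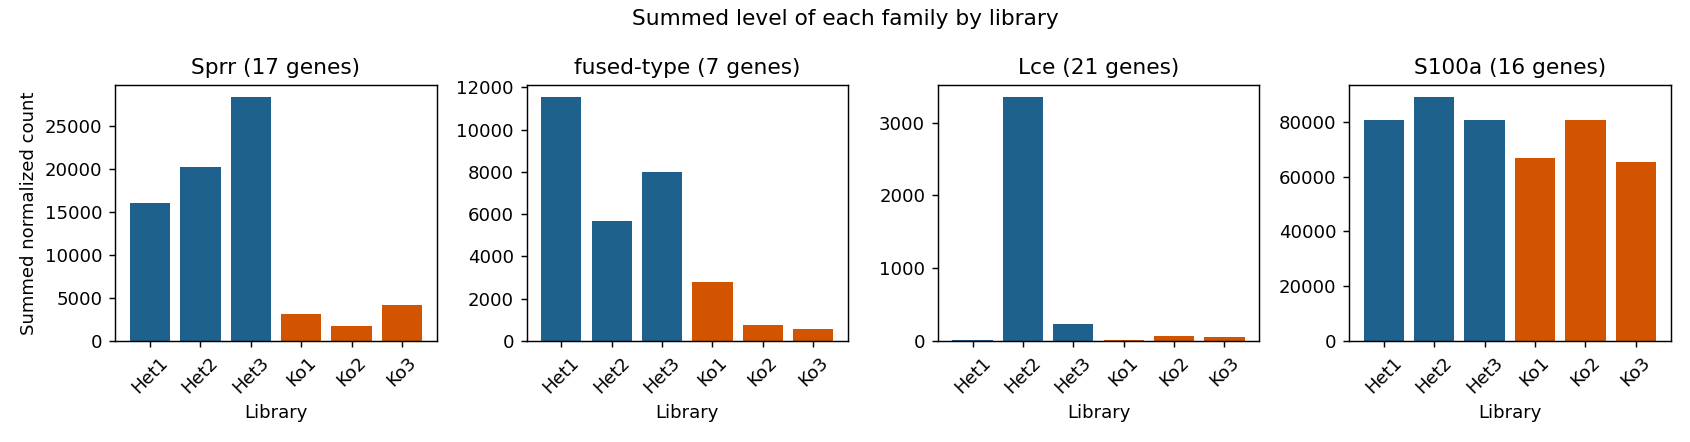
Summed normalized counts (vertical axis, from 0) of the Sprr, fused-type, Lce and S100a genes in each library, Het in blue and Ko in orange. Sprr sums are 16080.0 to 28323 in Het and 1777 to 4148 in Ko libraries, Lce sums stand out in Het2 alone, and S100a sums overlap between the groups at 80474 to 88953 and 65299 to 80665.

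Genes that act with the complex were examined as a list of 39 cornified envelope network genes, of which 38 were found and 35 tested. None was called by limma or edgeR, and DESeq2 called 3 lower, where it called 3.96% of all tested genes lower. At an unadjusted limma p under 0.05, 16 were lower and 0 higher, where 7.99% and 5.62% of all tested genes were. Their median log2 fold change was -1.70, with 29 negative and 6 positive. The smallest p-values belonged to Calml3, a calmodulin-like gene, with 2208 ± 237 normalized counts in Het and 925 ± 297 in Ko, to Asprv1, the protease that processes filaggrin, at 2708 ± 1919 and 73.5 ± 105, and to Klk7, a protease of skin shedding, at 1140.3 ± 61.7 and 101 ± 172 (SD, n = 3 each; limma adjusted p = 0.0578, 0.0760 and 0.0991). Calm4, another calmodulin-like gene, was at 3049 ± 1270 and 634 ± 465 (limma adjusted p = 0.132). Ko1 was the highest Ko library for each of the 4. Transglutaminase Tgm1, the main cross-linking enzyme, had 172, 96.6 and 139 in Het libraries against 393, 243 and 27.2.

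Transcription factors of cornification were examined as a separate list. Of 24 tested, 0 were called by limma or edgeR and 1 by DESeq2, as higher. At an unadjusted limma p under 0.05, 1 was lower and 1 higher, and the median log2 fold change was 0.05. Over all tested genes, DESeq2 called 3.96% lower and 1.97% higher, and 7.99% and 5.62% were lower and higher at that unadjusted p. Maf had the smallest p, with 508 ± 127 in Het and 1138 ± 66.0 in Ko (SD, n = 3; limma adjusted p = 0.102), followed by Hopx, Ovol1 and Ovol2 (0.343, 0.466 and 0.492). Klf4, a factor of keratinocyte differentiation, was at 4684 ± 1333 and 4072 ± 43.5, and Pou2f3, which tuft cells and epidermis share, at 2490.1 ± 390.4 and 2765 ± 306. Among 14 S100 partners, receptors and other S100 genes, 0 were called by limma or edgeR. DESeq2 called 1 lower and 1 higher, and 2 were lower at an unadjusted limma p under 0.05, against the same shares of all tested genes. Anxa1 had 75846 ± 24231 in Het and 43591 ± 5867 in Ko (limma adjusted p = 0.124), and Anxa2, whose product binds S100A10, at 10814 ± 934 and 11085 ± 635 (0.932). S100g, Cd69 and Tlr4 came next after Anxa1 by p (limma adjusted p = 0.142, 0.447 and 0.517).

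Markers of other epithelial and blood cells were examined in the same libraries. Of 16 keratinocyte-like marker genes, all tested and 15 of them also in another list, 0 were called by limma or edgeR. DESeq2 called 1 lower, where it called 3.96% of all tested genes lower. At an unadjusted limma p under 0.05, 9 were lower, where 7.99% of all tested genes were. None of the 16 was at 0 in all libraries. Of their fold changes, 12 were negative and 4 positive, with a median log2 fold change of -2.23. Their summed level was 35580 to 44515 normalized counts in Het against 40805, 19133 and 25404 in Ko, so that Ko1 lay within the Het range, as it did for Flg and Hrnr. This position of the Ko1 sum came from Krtdap, at 4801, 16557 and 14984 in Het libraries against 21564, 8512 and 18557. Without Krtdap, every Ko sum lay below every Het sum. Of 14 genes of basal and stratified epithelium, Krt6b, a keratin of activated stratified epithelium, fell from 460.2 ± 256 to 1.85 ± 0.365 (SD over 3 libraries; limma adjusted p = 0.0190), and the list's sums overlapped, at 25836 to 28974 in Het and 20014 to 41295 in Ko libraries. All 10 Aire-stage genes had negative fold changes, with 0 called by limma or edgeR. DESeq2 called 3 lower and 4 were lower at an unadjusted limma p under 0.05, against the same 3.96% and 7.99%. Their sums were 54692, 124237 and 111438 in Het, with Het1 inside the range of 35254 to 66752 of the Ko libraries. Of the 18 tuft cell markers, limma called 3: Rgs13 and Ptgs1 rose (adjusted p = 0.00868 and 0.0264) and Gnb3 fell (0.0341). Of all tested genes, 0.288% rose and 0.525% fell by limma. By edgeR 1 marker rose and 0 fell, where 0.124% and 0.263% of all tested genes did. DESeq2 called 3 higher and 2 lower, where it called 1.97% and 3.96% of all tested genes. At an unadjusted limma p under 0.05, 5 were higher and 2 lower, against 5.62% and 7.99% of all tested genes. Of the macrophage and dendritic cell, fibroblast and thymocyte lists, 0 genes were called by limma or edgeR, DESeq2 called 1, 1 and 0, and 1, 1 and 0 had an unadjusted limma p under 0.05. Those of the macrophage and dendritic cell list were lower and those of the fibroblast list higher. Over all tested genes, DESeq2 called 3.96% lower and 1.97% higher, against 7.99% and 5.62% at that unadjusted p. The sums of these lists were 640 to 1493, 932 to 1597 and 86.6 to 518 normalized counts in Het and 578 to 876, 935 to 13563 and 154 to 345 in Ko, with the fibroblast sum highest in Ko2. The part of any of these cells in the complex's values was not tested.

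The 5 calls depended on single libraries, for 2 genes on a setting of the limma fit, and for S100a9, Sprr2d and Sprr2e on the tool. Without Het2 or without Het3 limma called 0 members and 0 of all tested genes, while 14 and 15 of the 39 members were lower at an unadjusted p under 0.05, where 6.02% and 5.97% of all tested genes were. Rptn then had adjusted p = 0.0746 and 0.125 and Sprr1a 0.0995 and 0.131 without Het2 and Het3, and both were called without each other library and by edgeR. S100a9, Sprr2d and Sprr2e were not called without Het1 either (0.0714, 0.0726 and 0.0881), and S100a9 not without Ko1 or Ko2 (0.0559 and 0.0625). Sprr2d was lost without Ko2 or Ko3 (0.113 and 0.120) and Sprr2e without Ko1, Ko2 or Ko3 (0.0732, 0.0820 and 0.105). Sprr2d was also lost with a pseudocount of 0.5 (0.0522) and Sprr2e with a minimum mean of 50 (0.0807). By edgeR 2 members fell, Rptn and Sprr1a, where 0.263% of all tested genes fell. DESeq2 called 10, adding Crnn, Ivl, S100a3, S100a6 and S100a14 to the 5, where 3.96% of all tested genes fell. Of the tools, DESeq2 made the most false calls on simulated data. The authors' deposited table lists 10 members as lower and 0 as higher at an adjusted p under 0.05, with S100a4 in place of S100a6, where 5.16% of the genes with an adjusted p there were lower and 3.03% higher. It gives no adjusted p for 29 of the 63 members, among them most Lce genes.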

How the data were processed

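RNA of thymic tuft cells was measured in 6 libraries. The submitters' processing notes name STAR 2.7.9a, DESeq2 and build GRCm39 for the work of the authors; the sources used here do not give the counter, annotation or strandedness. The authors deposited the expression values as a signal: reads per gene after division by a library's size factor. Their other deposited table compares Ko with Het by log2 fold change, Wald score, p-value and adjusted p-value, next to the mean signal, per the file headers.

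Symbols were matched through a gene name table, and 1 member, S100a7l2, through RefSeq. Values were whole multiples of 1 step per library and gave whole reads within 0.01 reads for 100% of values. Genes with a mean of at least 10 were tested on log2(value + 1), a scale that understates changes of low genes, with limma 3.58.1 in R 4.3.3 (trend, two-sided, Benjamini-Hochberg over all 19416 tested genes, threshold 0.05). An exact permutation test of 3 against 3 libraries cannot go below 0.10. Alternatives were pseudocounts of 0.5 and 5, a minimum mean of 50 or none, scaling by TMM, by equal totals or by quantiles, edgeR 4.0.16 and DESeq2 1.42.0 on the recovered reads, and each library left out. A Ko group at 0 reads was set to a floor of 3 reads, and ratios against 1 to 3 reads carry an exact 95% interval. In single libraries 3 reads are worth 1.68 to 4.33 normalized counts. The tests were tried on counts simulated from the means, depths and dispersions of these libraries. Among 57648 tests of unchanged genes, DESeq2 called 334, limma 29 and edgeR 24, so DESeq2 calls are the less certain ones. At an 8-fold change, DESeq2 recovered 78.7% of the changed genes, limma 61.3% and edgeR 60%.

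The members and the gene lists were chosen with earlier results of these data known, and the lists serve as description. All members with a mean of at least 10 are named, with values per library where the mean is at least 50 or the unadjusted p is under 0.05, and from each list the called genes and up to 4 genes with the smallest p. Other genes, such as Camp, Mmp8, Mmp9, Tgm1, Klf4, Pou2f3, Anxa2 and the low neutrophil markers, and the motifs were chosen after their values or sequences were seen. Shared sequence was counted in GENCODE vM21 transcripts, and gene length is the union of exons there.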

Additional observations from a re-analysis of the deposited data

How the results depend on the processing

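Of 19416 tested genes, limma called 102 lower and 56 higher, 158 in all; edgeR called 75 and DESeq2 1151, and under TMM scaling the split was 122 and 37, so that the share of higher calls was 23.3% against 35.4%. Leaving out 1 library gave 0 to 81 calls, 39 lower and 42 higher (51.9% higher) without Het1, 0 without Het2 or Het3, 59 and 15 without Ko1 (20.3%), 44 and 10 without Ko2 (18.5%) and 13 and 2 without Ko3 (13.3%). Of the members, edgeR called 2 lower and DESeq2 10 against 5 by limma, leaving out 1 library gave 0 to 4, and 0 rose under any alternative. Of the cornified envelope network, 1 gene was called with a pseudocount of 5, 1 with a mean of at least 50, 1 under TMM scaling, 3 by DESeq2 and 0 to 4 with 1 library left out, against 0 by limma.

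The sign of the log2 fold change turned for S100a1 under equal totals (0.0021) and quantile normalization (0.0899). With 1 library left out, it ran from -0.0795 to 0.0896 for S100a1, from -3.05 to 0.17 for Lor, from -3.67 to 0.26 for Sprr2c-ps, from -4.04 to 1.08 for Sprr4, from -2.44 to 0.67 for Lce6a, from -4.18 to 0.68 for Lce1c, from -2.89 to 0.65 for Lce1g, from -4.88 to 0.34 for Lce1h and from -2.43 to 0.65 for Lce1i. For all of these but S100a1 and Lor, the library left out held nearly all the reads. Among the values of single members under all alternatives run, 557 kept their direction and side of the threshold, 27 lost a call, 9 gained one and 12 turned. With 3 libraries a group and 12238428 reads in the shallowest, 24 members were too low to test.

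Columns of both groups are numbered 1 to 3, and the labels used here do not state that equal numbers mark a pair. Deviations from the group means correlated across genes at 0.025, 0.021 and -0.015 for the same-numbered columns. Het1 correlated best with Ko1, and Het2 and Het3 with Ko2. All values lay between -0.046 and 0.025, too near 0 to decide whether the libraries were paired. A limma fit with the column number as a replicate block, added after seeing the data, called 87 genes, 1 of them in the cornified envelope network, and 5 members, 3 of them among the 5 above, with S100a6 and S100a8 in place of Sprr2d and Sprr2e.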
